A study of Mus musculus with 22 samples.

Results

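The marker miRNAs of non-parenchymal liver cells described here were mmu-miR-126-3p, mmu-miR-145a-5p, mmu-miR-143-3p, mmu-miR-199a-3p, mmu-miR-142-3p, mmu-miR-223-3p and mmu-miR-150-5p. They were taken by name and made up 7 of the 1247 mouse miRNAs on the array, each with 2 probes. Cultures of primary hepatocytes from C57Bl6 mice were measured on 22 single-colour Agilent miRNA arrays spread over 3 slides. The cells had been kept with cyclosporin A, a calcineurin inhibitor used as an immunosuppressant and often as a model hepatotoxicant, or with its solvent alone. The groups were 10 µM cyclosporin A for 24 h (3 arrays), 50 µM for 24 h (2 arrays), 10 µM for 48 h (3 arrays), 50 µM for 48 h (3 arrays), 0.5% DMSO for 24 h (5 arrays) and 0.5% DMSO for 48 h (6 arrays). All groups shared the hepatocyte culture and its serum-containing medium, and no group of sorted non-parenchymal cells or whole liver was among them. The titles call the arrays biological replicates and the descriptions give each an experiment number from 1 to 3; the labels do not say whether a number stands for 1 cell isolation. A treatment text in the labels names HepG2 cells, while the other fields name primary mouse hepatocytes.

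Besides hepatocytes, the liver holds endothelial cells of the sinusoids, stellate cells, resident macrophages called Kupffer cells, lymphocytes, cells of the bile ducts and blood cells, and hepatocyte preparations can carry some of them. miR-126 is made mainly in endothelial cells, where it acts on signalling through vascular growth factors; miR-143 and miR-145 are made from one precursor transcript, mostly in smooth muscle and other mesenchymal cells; miR-199a is abundant in fibroblasts and stellate cells. miR-142 is found across blood cells, miR-223 in myeloid cells and miR-150 in mature lymphocytes. In RNA from a whole culture, fewer cells of a type and less of a miRNA per cell cannot be told apart.

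The mature sequences are shown to set the member that was measured on most arrays beside 3 members that were not measured on any, and to mark the seed, bases 2 to 8 from the 5′ end, in capitals. RefSeq's miRNA table (GRCm38.p6) held 4 of the 7, with mmu-miR-126-3p and mmu-miR-142-3p listed there under the newer names mmu-miR-126a-3p and mmu-miR-142a-3p.
mmu-miR-126-3p: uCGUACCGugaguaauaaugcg
mmu-miR-199a-3p: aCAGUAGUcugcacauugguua
mmu-miR-142-3p: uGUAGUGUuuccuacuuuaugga
mmu-miR-223-3p: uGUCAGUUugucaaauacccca
The 4 seeds were all different. mmu-miR-126-3p lies at chr2:26591402-26591423 on the plus strand, inside the gene interval of Egfl7, a gene for a protein secreted by endothelial cells. mmu-miR-199a-3p is encoded at chr9:21496498-21496519 (minus strand, inside the interval of Dnm2) and at chr1:162217883-162217904 (plus strand, inside those of Dnm3 and the long noncoding RNA Dnm3os), and mmu-miR-199b-3p carries the same seed. mmu-miR-142-3p lies at chr11:87756903-87756925, with no other gene of the table over it, and mmu-miR-223-3p at chrX:96242884-96242905, inside the noncoding gene F630028O10Rik.

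Only 2 of the 7 markers, mmu-miR-126-3p and mmu-miR-145a-5p, were above background on any array. The probe of a miRNA with the highest mean scaled signal over the arrays stood for it, with the scaling described below. An array was counted for a miRNA when at least a share of 0.5 of the spots of this probe carried the software's flag for a signal well above background. By that rule mmu-miR-126-3p was above background on 20 of 22 arrays and mmu-miR-145a-5p on 12 of 22. The mesenchymal markers mmu-miR-143-3p and mmu-miR-199a-3p, and the blood-cell markers mmu-miR-142-3p, mmu-miR-223-3p and mmu-miR-150-5p, were above background on 0 of 22 arrays. Among all 1247 miRNAs, 388 (31.1%) were above background on 1 array or more and 156 on all 22, so the markers' 28.6% was close to the share of the whole array.

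The software's own call for a miRNA, which pools its probes, gave mmu-miR-126-3p on 22 arrays, mmu-miR-145a-5p on 19 and the other 5 markers on 0. The deposited value table gave the same counts: it stood above its lowest value for mmu-miR-126-3p in 22 columns and for mmu-miR-145a-5p in 19, and it listed the other 5 at that lowest value, a log2 of -1, in every column. Counting an array when any single spot was flagged added 1 array for mmu-miR-199a-3p, the first replicate of 10 µM cyclosporin A at 24 h, where 1 of 416 spots over all arrays carried the flag. The 4 remaining markers had no flagged spot among 410 to 420 spots each.

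**Figure D1:**
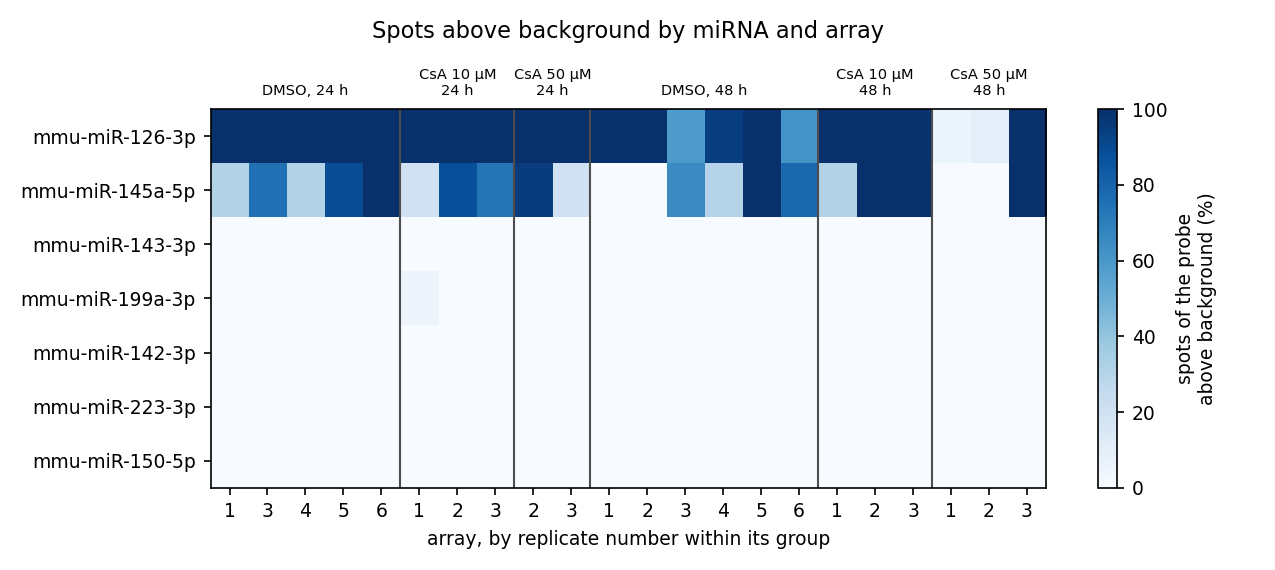
Share of the spots of each marker's probe that were above background (colour, 0 to 100%), by miRNA (rows) and array (columns, grouped by treatment and time). mmu-miR-126-3p is dark except for 2 nearly empty arrays of 50 µM cyclosporin A at 48 h and 2 intermediate DMSO arrays at 48 h. mmu-miR-145a-5p is mixed, and the 5 rows below are pale on every array.

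The signals of the 5 unseen markers stayed near 0 in the scanner's units, where the lowest signal called above background on an array was between 9.70 and 35.0. mmu-miR-143-3p, the partner of mmu-miR-145a-5p on one precursor, ran from -3.48 over a median of -1.66 to 1.59. mmu-miR-150-5p ran from -4.06 over -0.88 to 1.95. These were the lowest of the set: each exceeded the median of its array's negative-control spots, which lay between 0.304 and 3.41, on 1 of 22 arrays.

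mmu-miR-199a-3p had signals from -1.46 over a median of 1.73 to 5.04, above the negative-control median on 12 arrays. mmu-miR-142-3p ran from -0.15 over 1.97 to 3.69 and passed it on 9 arrays. mmu-miR-223-3p ran from -1.60 over 1.83 to 3.61 and passed it on 10 arrays. All 3 therefore lay around the negative controls, on some arrays over and on others under their median. Set against the lowest signal called on the same array, they reached at most 38.6%, 29.8% and 27.3% of it, and mmu-miR-143-3p and mmu-miR-150-5p at most 5.04% and 6.20%. For these 5 the arrays give a bound and no level, so no difference by dose or time was tested.

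The opposite arms and relatives of the markers were read the same way, from lists of cell-type markers. Of the 2 endothelial entries on the array, mmu-miR-126-3p alone was seen; mmu-miR-126-5p, the other arm of its hairpin, was at most 5.52 and above background on 0 arrays. Of 10 stellate and mesenchymal entries, mmu-miR-145a-5p alone was seen; mmu-miR-145a-3p, mmu-miR-143-5p, mmu-miR-199a-5p, mmu-miR-199b-5p, mmu-miR-214-3p and mmu-miR-214-5p were on 0 arrays. Of 9 leukocyte entries 2 were seen. mmu-miR-155-5p, which rises in activated macrophages and lymphocytes and is made in other cells too, was above background on 16 arrays, with signals from 10.6 over a median of 17.4 to 58.5. mmu-miR-150-3p was above background on 1 array, the third replicate of 10 µM cyclosporin A at 48 h, at 48.7; the signal of mmu-miR-150-5p there was -0.68.

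None of the 2 erythroid, 5 biliary and epithelial, and 8 muscle, pancreas and neural entries was above background on any array. In these 36 entries for cells other than hepatocytes, 4 were seen at all. The 6 hepatocyte entries were all seen, and 5 of them on all 22 arrays, among them mmu-miR-122-5p, the most abundant miRNA of hepatocytes, with signals from 10540 over 14517 to 28065. The labelled cell type thus had its defining miRNA on every array. Over the whole array, 388 of 1247 miRNAs were seen on 1 array or more and 156 on all 22. The lists were chosen with earlier results of these data known, so the contrast between them is a description and no test of purity.

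For mmu-miR-126-3p, the endothelial marker, the 22 signals ran from 13.7 over a median of 32.4 to 66.8. The 5 DMSO arrays at 24 h gave 33.8, 35.3, 32.9, 41.9 and 49.2. The 3 arrays of 10 µM cyclosporin A at 24 h gave 63.2, 31.9 and 42.0, and the 2 of 50 µM gave 30.1 and 39.3. Of the 5 treated arrays at 24 h, 2 lay within the range of the DMSO arrays, 1 above it and 2 below it, and the groups overlapped.

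At 48 h the 6 DMSO arrays ran from 13.7 over 24.7 to 43.8. The 3 arrays of 10 µM cyclosporin A gave 36.7, 27.5 and 66.8, and the 3 of 50 µM gave 30.4, 26.3 and 30.3. The groups overlapped here too, and the lowest signals of the whole set, 13.7 and 19.5, were 2 DMSO arrays of experiment 2. The 2 arrays on which mmu-miR-126-3p missed the flag were the first and the second replicate of 50 µM at 48 h. Their signals, 30.4 and 26.3, were higher than some that passed elsewhere, but the lowest signal called above background on those arrays was 35.0 and 31.4. These arrays also had 175 and 172 miRNAs above background in all, against 204 to 338 on the other 20. The share of spots marked as outliers there was 9.24% and 10.3%, within a range of 2.19% to 10.3% over the arrays.

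For mmu-miR-145a-5p, the mesenchymal marker, signals ran from 6.06 over a median of 17.6 to 65.1. At 24 h the DMSO arrays gave 11.7, 22, 9.40, 17.5 and 33.5, the 10 µM arrays 11.03, 17.6 and 18.6, and the 50 µM arrays 17.7 and 9.89. At 48 h the DMSO arrays ran from 6.06 over 15.1 to 41.5, the 10 µM arrays gave 11.2, 33.2 and 65.1, and the 50 µM arrays gave 23.5, 19.1 and 29.6. Within each time the 3 groups overlapped; across times, the 50 µM arrays at 48 h lay above those of 10 and 50 µM at 24 h. It was above background on 3 of 5 and 3 of 6 DMSO arrays, 2 of 3 and 2 of 3 arrays of 10 µM, and 1 of 2 and 1 of 3 arrays of 50 µM, at 24 and 48 h. The highest signal of both measured markers came from the third replicate of 10 µM at 48 h, which was also the brightest array, with 338 miRNAs above background.

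**Figure D2:**
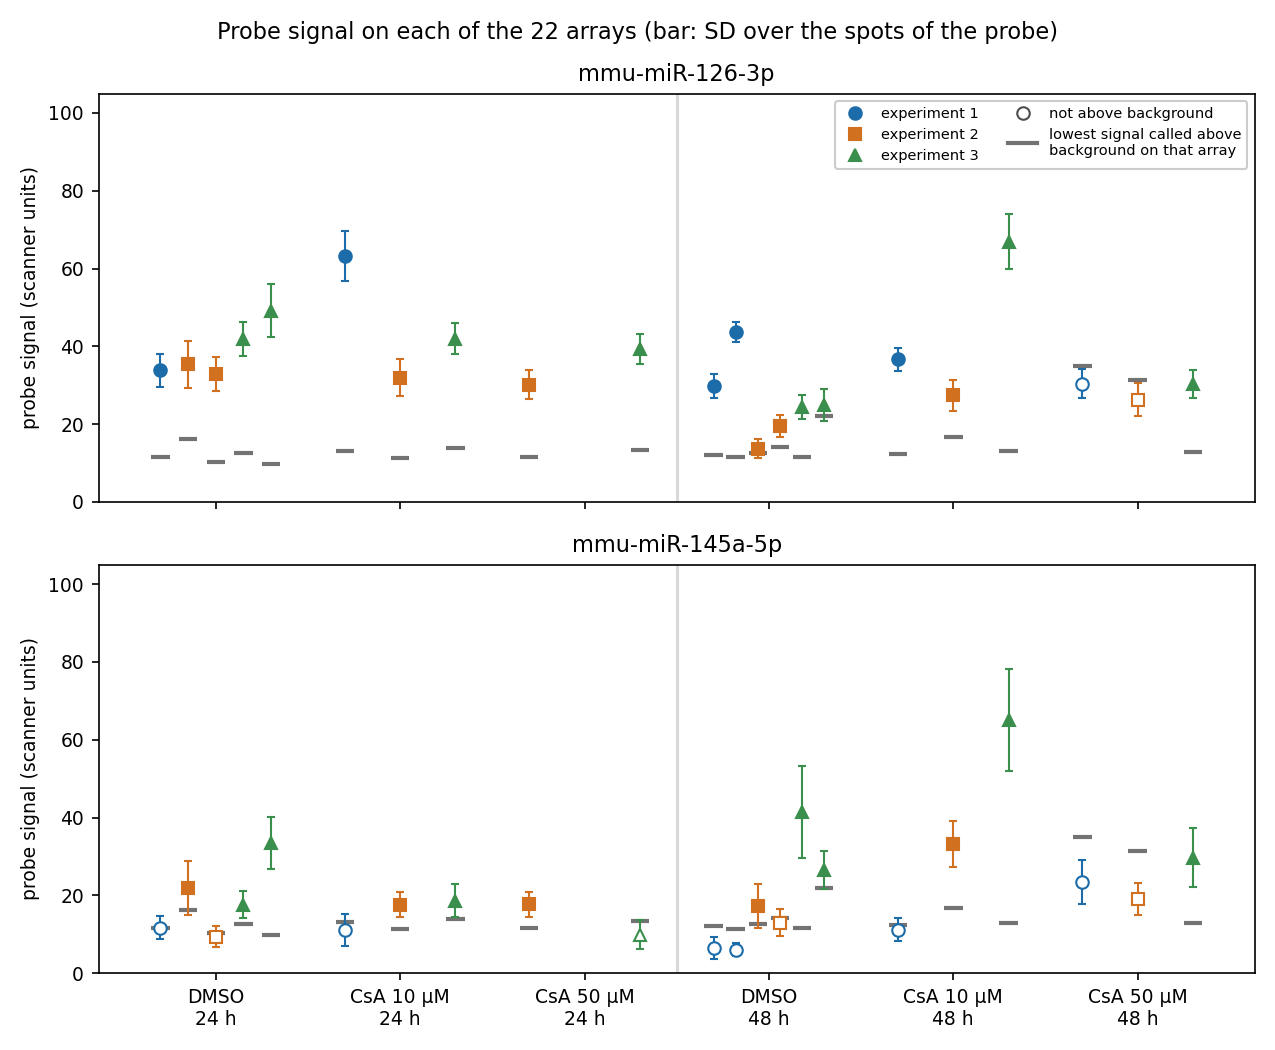
Signal of the probe (mean over its spots, scanner units) on each array for mmu-miR-126-3p (top) and mmu-miR-145a-5p (bottom), by group; bars are the SD over spots, open symbols missed the background rule, and grey dashes mark the lowest signal called above background on that array. The 2 open symbols of mmu-miR-126-3p, at 30.4 and 26.3, sit under unusually high dashes at 35.0 and 31.4.

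The second probe of each marker gave a check on these values. Over the 22 arrays the log2 signals of the 2 probes correlated at r = 0.98 for mmu-miR-126-3p and 0.96 for mmu-miR-145a-5p, as a description, since both probes share the array and its brightness. The second probe was above background on 18 arrays for mmu-miR-126-3p and on 12 for mmu-miR-145a-5p. The SD over spots of 1 probe had a median of 12.5% of the signal for mmu-miR-126-3p and 25.1% for mmu-miR-145a-5p.

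To compare groups, each signal was divided by its array's 75th percentile over the 281 probes seen on all arrays, which ran from 188 to 605. Results are given as a percent of that percentile or on a log2 scale, and values under 4.71% were set to 4.71%. The floor held mmu-miR-145a-5p on 8 of 22 arrays and mmu-miR-126-3p on 0. On this scale mmu-miR-126-3p was ordered from 16.7% ± 6.16 (SD, n = 3) at 10 µM and 24 h, over 13.2% ± 3.16 (n = 5) in DMSO at 24 h, 11.9% ± 3.12 (n = 2) at 50 µM and 24 h, 11.2% ± 3.16 (n = 3) at 10 µM and 48 h and 9.29% ± 1.59 (n = 3) at 50 µM and 48 h, to 8.82% ± 3.76 (n = 6) in DMSO at 48 h. All 3 groups at 24 h thus stood over all 3 at 48 h, but no neighbours in the order differed by more than the larger of their SDs. Neighbours in a sorted order are its closest means, so this says little about the ends, at 16.7% and 8.82%. The SDs also hold the differences between experiments. mmu-miR-145a-5p had the other order of times, from 8.45% ± 3.26 (n = 3) at 10 µM and 48 h, 7.81% ± 2.62 (n = 3) at 50 µM and 48 h and 6.81% ± 3.02 (n = 6) in DMSO at 48 h to 6.31% ± 2.10 (n = 5), 5.94% ± 1.17 (n = 3) and 5.20% ± 0.686 (n = 2) in DMSO, 10 µM and 50 µM at 24 h. Here, too, no neighbours differed by more than the larger SD.

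The sample names of the arrays limit the comparisons by dose. In 16 of 22 columns the deposited value table held the array filed under another sample, of the other dose or the other DMSO series but always of the same time and experiment number; the sources do not settle which naming is right. Results below use the files' names, and the tests of each dose against DMSO are repeated with the table's.

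The first question was whether cyclosporin A at either dose changed these markers. No member passed the test in any comparison with DMSO (limma over 290 miRNAs seen on 3 arrays or more, with Benjamini-Hochberg adjustment at 0.05). These fits left out the experiment number. With it as a block and the files' names, again no member was called. For mmu-miR-126-3p the log2 difference at 24 h was 0.31 ± 0.31 (SE; adjusted p = 0.872) at 10 µM and -0.14 ± 0.36 (adjusted p = 1) at 50 µM, and the 95% intervals reached from -0.36 to 0.97 and from -0.90 to 0.61. At 48 h it was 0.40 ± 0.30 (adjusted p = 0.453) and 0.15 ± 0.30 (adjusted p = 0.861), with intervals from -0.24 to 1.04 and from -0.49 to 0.79. For mmu-miR-145a-5p the values were -0.05 ± 0.35 and -0.23 ± 0.40 at 24 h and 0.32 ± 0.33 and 0.24 ± 0.33 at 48 h, with adjusted p from 0.642 to 1. At 50 µM and 24 h the interval of mmu-miR-145a-5p reached from -1.06 to 0.60, so a level lower by close to 1 log2 unit lay within the intervals of both markers there.

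Under the files' own sample names few of all miRNAs were called. Of the 290 miRNAs, 0% were called at 10 µM and 0% at 50 µM at 24 h, 6.55% at 10 µM and 48 h and 0.345% at 50 µM and 48 h, beside 0 of the 2 tested members each time. At an unadjusted p under 0.05 the same fits held 21, 7, 74 and 18 miRNAs, and neither member was among them. With both doses averaged, the log2 difference of mmu-miR-126-3p was 0.08 ± 0.27 at 24 h (0% of miRNAs called) and 0.28 ± 0.25 at 48 h (1.03% called), and that of mmu-miR-145a-5p was -0.14 ± 0.30 and 0.28 ± 0.27. The 50 µM arrays against the 10 µM arrays differed by -0.45 ± 0.39 and -0.25 ± 0.35 for mmu-miR-126-3p, and by -0.18 ± 0.43 and -0.08 ± 0.39 for mmu-miR-145a-5p, at 24 and 48 h, with 0% of miRNAs called at either time. These comparisons share DMSO or cyclosporin arrays with each other.

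With the arrays named as in the value table, again 0 of the 2 tested members were called against DMSO, but the background changed most at 50 µM and 48 h: 37.9% of the 290 miRNAs were called there, 110 in place of 1. In that comparison the log2 difference was 0.18 for mmu-miR-126-3p (adjusted p = 0.681) and 0.51 for mmu-miR-145a-5p (adjusted p = 0.19). At 10 µM and 48 h 1.03% were called, at 24 h 0% at 10 µM and 3.79% at 50 µM, and with both doses averaged 2.07% at 24 h and 19.3% at 48 h. At 50 µM and 24 h the differences were 0.03 for mmu-miR-126-3p and 0.11 for mmu-miR-145a-5p, so both changed sign against the files' naming.

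**Figure D3:**
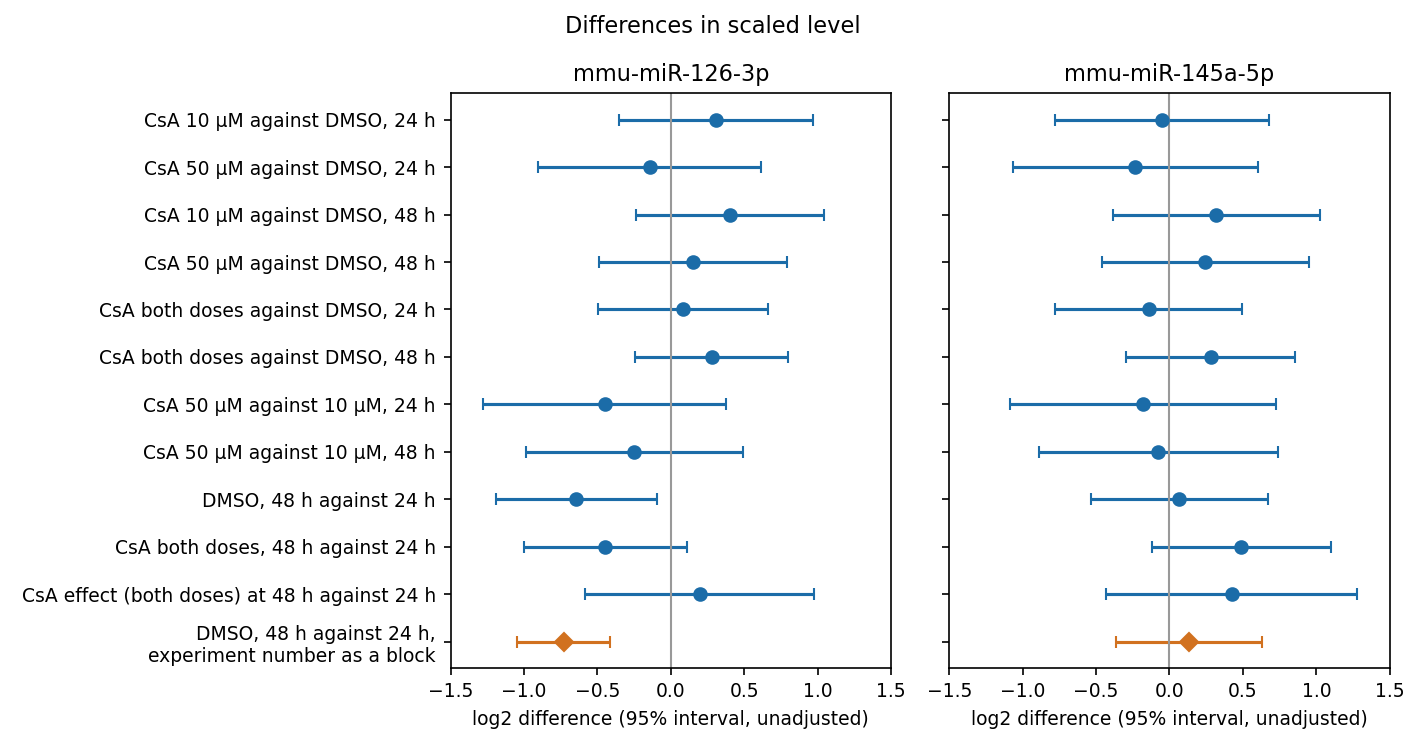
Log2 difference in scaled level with its unadjusted 95% interval for mmu-miR-126-3p (left) and mmu-miR-145a-5p (right) in the 11 comparisons, with the DMSO time comparison repeated with the experiment number as a block (diamond). Of the 11 circles on the left, only that of DMSO at 48 h against 24 h has an interval clear of 0, from -1.19 to -0.09.

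The second question was how the markers moved with time in culture, and here mmu-miR-126-3p was lower at 48 h. In DMSO its scaled level at 24 h was 17.9% in experiment 1, 9.82% and 12.5% in experiment 2, and 11.2% and 14.4% in experiment 3. At 48 h it was 10.8% and 15.6% in experiment 1, 5.43% and 6.81% in experiment 2, and 7.34% and 7.02% in experiment 3. Within each experiment every 48 h array lay below every 24 h array, although the groups overlapped once experiments were pooled. The mean log2 differences were -0.47, -0.87 and -0.83 in experiments 1, 2 and 3.

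Fitted without the experiment number, the difference between 48 h and 24 h in DMSO was -0.64 ± 0.26 (unadjusted p = 0.0243, adjusted p = 0.373), with 0% of the 290 miRNAs called and 35 at an unadjusted p under 0.05. With the experiment number as a block it was -0.73 ± 0.15 (adjusted p = 0.0266), a level 39.7% lower with an unadjusted 95% interval from 24.8% to 51.6%; 2.41% of miRNAs, 7 of 290, were then called, and 6 of those 7 were higher at 48 h. The call with the block was lost without 5 of the 11 DMSO arrays in turn: replicates 3 and 6 at 24 h (adjusted p = 0.0613 and 0.0762) and replicates 1, 3 and 4 at 48 h (0.0658, 0.0994 and 0.0697). The difference stayed between -0.83 and -0.66 in all 11 of these fits.

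Time and slide were partly mixed. With the slide as a block the unblocked difference was -0.66 ± 0.24 (adjusted p = 0.366). Within slide 1 the difference was -0.76 (1 array against 2), within slide 3 it was -1.47 (3 against 1) and within slide 2 it was 0.13 (2 against 2). On slide 2 both 48 h arrays were of experiment 1 and both 24 h arrays of experiments 2 and 3, and on slide 3 the 24 h array was of experiment 1 and the 48 h arrays of experiments 2 and 3, so both slides compare experiments as well as times. With slide and experiment number together the difference was -0.73 ± 0.15 (adjusted p = 0.0399).

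In the cyclosporin arrays mmu-miR-126-3p was likewise lower at 48 h in each experiment. At 10 µM, by the files' names, the log2 differences were -0.68, -0.43 and -0.52 in experiments 1, 2 and 3. These values by dose were not repeated with the table's names, which exchange the doses in experiments 2 and 3. Over all cyclosporin arrays the log2 differences were -1.02, -0.37 and -0.44, where the 24 h side of experiment 1 was a single array, of 10 µM. Without the experiment number the fitted difference was -0.45 ± 0.26 (adjusted p = 0.363, 0.345% of miRNAs called), and that was not past the threshold. With the experiment number as a block, mmu-miR-126-3p was not called by the files' names but was by the table's, as given below. With the slide as a block the difference shrank to -0.12 (adjusted p = 0.898). Within slide 1 the difference was -0.11 (4 arrays against 1) and within slide 3 it was 0.19 (2 against 1). On both slides the 48 h arrays included other experiments than the 24 h array. The test of whether the treated and the DMSO arrays differed in their change with time gave 0.20 ± 0.37 (adjusted p = 0.85, 0% of miRNAs called), with an interval from -0.58 to 0.98. Without regard to slide, the level of mmu-miR-126-3p stood lower at 48 h in 6 of 6 pairs of an experiment and a treatment arm.

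mmu-miR-145a-5p did not share this. Its difference between 48 h and 24 h was 0.07 ± 0.29 in DMSO (adjusted p = 0.993) and 0.49 ± 0.29 under cyclosporin A (adjusted p = 0.363), and the difference between these 2 changes was 0.42 ± 0.41 (adjusted p = 0.83). It was lower at 48 h in 1 of 6 pairs, that of DMSO in experiment 1, where both 48 h arrays stood at the floor. In the cyclosporin pair of experiment 1 the difference was 0.29, and 0 at 10 µM alone. mmu-miR-145a-5p was above background on 0 of 6 arrays of that experiment, so neither of its pairs measures a change.

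The level of mmu-miR-126-3p also differed between the 3 numbered experiments, a comparison added after the data were seen. mmu-miR-126-3p had a mean log2 level of -2.79 ± 0.49 (SD, n = 6) in experiment 1, -3.53 ± 0.39 (n = 8) in experiment 2 and -3.17 ± 0.43 (n = 8) in experiment 3. An F test of the experiment number beside the treatment group gave -0.83 for experiment 2 and -0.47 for experiment 3 against experiment 1 (limma, adjusted p = 0.0025); 18.6% of the 290 miRNAs were called in that test, so such a difference was common on these arrays. The call held in 11 of 11 other settings and without each of the 22 arrays. The array percentiles used for scaling had medians of 275, 300.3 and 337 in experiments 1, 2 and 3, and their part in the result was not tested; in unscaled signal the medians of mmu-miR-126-3p were 35.2, 28.8 and 40.6.

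mmu-miR-145a-5p was lowest in experiment 1 and highest in experiment 3. It was above background on 0 of 6 arrays of experiment 1, 5 of 8 of experiment 2 and 7 of 8 of experiment 3, and its median signals were 11.1, 17.6 and 28.0. Against experiment 1 the fitted differences were 0.29 and 0.68 (adjusted p = 0.0639), not past the threshold; 4 of 11 other settings and 5 of 22 fits without 1 array put it past the threshold. Across the 22 arrays the log2 levels of mmu-miR-126-3p and mmu-miR-145a-5p correlated at r = -0.30, given as a description of arrays that share 3 experiments and 3 slides.

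**Figure D4:**
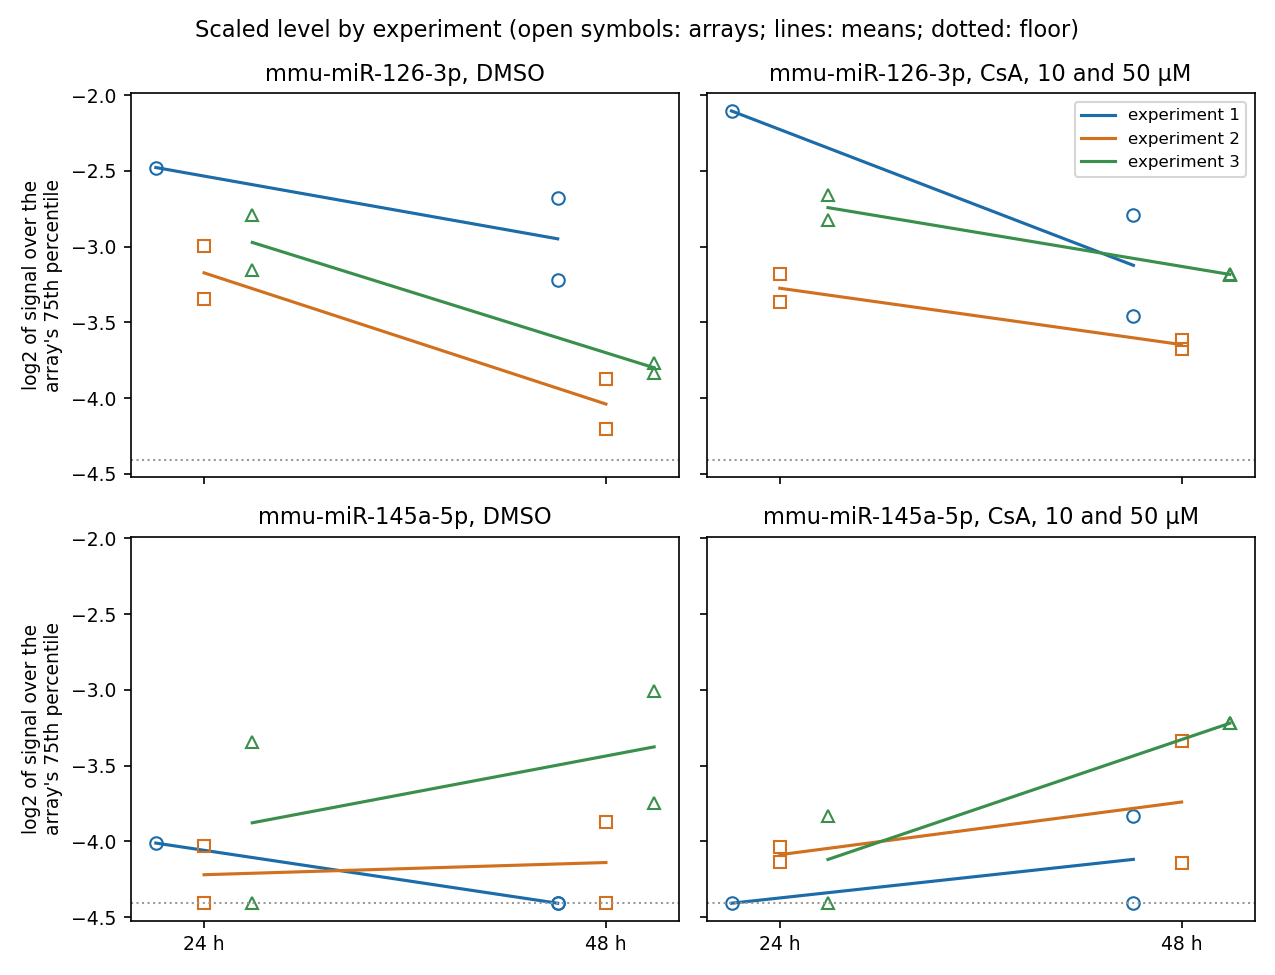
Log2 scaled level by time for mmu-miR-126-3p (top) and mmu-miR-145a-5p (bottom) in DMSO (left) and cyclosporin A at either dose (right); open symbols are arrays, lines join the means of an experiment and the dotted line is the floor. The 6 lines of mmu-miR-126-3p all slope down from 24 to 48 h, and 5 of the 6 of mmu-miR-145a-5p slope up.

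The miRNAs whose log2 levels followed the 2 measured markers most closely over the 22 arrays were different ones. For mmu-miR-126-3p they were mmu-miR-122-5p (r = 0.79), mmu-miR-29c-3p (r = 0.78) and mmu-miR-148a-3p (r = 0.72), all above background on 22 arrays; mmu-miR-122-5p and mmu-miR-148a-3p stand on the list of hepatocyte miRNAs. For mmu-miR-145a-5p they were mmu-miR-542-5p (r = 0.91, above background on 12 arrays), mmu-miR-874-3p (r = 0.90, on 20 arrays) and mmu-miR-762 (r = 0.89, on 9 arrays). These were the 3 highest among 289 other tested miRNAs for each marker, and all points share an array and its scaling factor. In DMSO the log2 difference of mmu-miR-122-5p between 48 h and 24 h was -0.27 ± 0.09 (adjusted p = 0.196). The estimates of the other hepatocyte entries were lower too, with mmu-miR-101a-3p at -0.63 ± 0.25 and mmu-miR-148a-3p at -0.35 ± 0.20 (limma, adjusted p = 0.373 and 0.537). mmu-miR-122-3p, mmu-miR-192-5p and mmu-miR-194-5p gave -0.22, -0.20 and -0.19 (adjusted p = 0.629, 0.691 and 0.704). Under cyclosporin A the hepatocyte entries ran from -0.46 (mmu-miR-101a-3p) to -0.29 (mmu-miR-122-5p), beside -0.45 for mmu-miR-126-3p. A lower estimate at 48 h was thus not particular to mmu-miR-126-3p. None of these hepatocyte differences was called, and all are from fits without the experiment number.

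Of the 9 list members that could be tested, 0 were called in any of the 11 comparisons (limma). Over all 290 tested miRNAs 0% to 6.55% were called in these comparisons, so 0 of 9 was close to the share of the array. The lowest adjusted p, 0.0963, was that of mmu-miR-155-5p at 10 µM and 48 h, with a log2 difference of 0.57 ± 0.21.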

How the data were processed

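Total RNA of 22 hepatocyte cultures was labelled with the Agilent miRNA kit, per the labels' protocols. Per the file headers, Feature Extraction 10.7.3.1 made the deposited intensity of each spot, corrected for background, and its flags. The deposited value table holds log2 intensities normalised by the authors, with R 2.15.2 named in the submitters' processing notes; scale, centring and floor beyond that are not stated, and every column's median is -1. The members and marker lists were chosen with earlier results of these data known. The 7 members are described throughout, with the 3 miRNAs most correlated with each measured one.

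Spot intensities were averaged per probe without outlier spots. The probe with the highest mean scaled signal over the arrays stood for a miRNA. Values were divided by the array's 75th percentile, raised to 0.0471 where lower, and logged (log2). Groups were compared with limma 3.58.1 in R 4.3.3 (lmFit and eBayes over all groups); the fit was tested on simulated data. No spot was saturated. Arrays have no read depth, so their number limits the precision.

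DMSO arrays of one experiment number deviated together at 24 and 48 h (r = 0.24, 0.20 and 0.44 over 290 miRNAs in experiments 1, 2 and 3), so the block is given beside that comparison. The other comparisons are given above without the block, which under the files' names changed no call of a member there. By those names other pairs of groups went both ways. The 10 µM arrays at 24 and 48 h gave r = 0.85, 0.52 and 0.75, higher than in DMSO. The 10 µM and DMSO arrays at 48 h gave 0.71, -0.12 and 0.84, and the 10 and 50 µM arrays at 48 h -0.75, -0.66 and -0.26. Under the table's names, which exchange the doses in experiments 2 and 3, these values were not computed. An exchange could set the 2 doses against each other, so they do not settle which arrays deviated together. The block was fitted over all groups, so it also rests on pairs that did not deviate together by the files' names. The fits with block and slide or other names, the block under other values and the F test of the experiment number were added after the data were seen.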

Additional observations from a re-analysis of the deposited data

How the results depend on the processing

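No member was called in any of the 11 comparisons under any alternative without a block of experiment numbers, leave-one-out fits included (0 to 0 members). With the replicate block, 1 member, mmu-miR-126-3p, was called in DMSO at 48 h against 24 h (-0.73), as 1 of 7 miRNAs called out of 290. This held with the slide added (1 member, adjusted p = 0.0399), with the value table's names (1 member, 0.00846) and in the DMSO groups alone (1 member, 0.0341). In these 3 fits 3, 30 and 18 of the 290 miRNAs were called. Under 8 other sets of values with the block the difference ran from -0.85 to -0.25, below 0 in all 8, and the call was lost in 5 (highest adjusted p = 0.345, with the 75th percentile over all probes). With the value table's names and the block, 1 member, mmu-miR-126-3p, was also called for cyclosporin A at 48 h against 24 h (-0.59, adjusted p = 0.0232). The replicate block changed no other call. The F test of the experiment number called 2 members, not 1, with the slide as a block, the total gene signal, the mean over probes and the floor divided by 4. Of all tested miRNAs 16.6%, 20.7%, 18.6% and 23.1% were called in these settings. Without 1 array it called 1 to 2 members, beside 12.4% to 42.4% of miRNAs. The detection rules gave 2 members, or 3 when any spot counted; mmu-miR-145a-5p was counted on 5 arrays when every spot had to pass.

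Some differences that missed the threshold changed sign: 17 of 186 for mmu-miR-126-3p and 25 of 186 for mmu-miR-145a-5p over the other settings, and 4 and 10 of 110 without 1 array. The causes were not tested. For mmu-miR-126-3p the 75th percentile over all probes gave -0.11, -0.18 and -0.14 at 48 h (10 µM, 50 µM, both) and -0.23 for the change of the effect with time. At 50 µM and 48 h normexp gave -0.027, the total gene signal -0.11, doubling the floor -0.080 and the value table -0.13. Both doses gave -0.011 at 48 h with normexp, and at 24 h -0.023 with the total gene signal, -0.024 with the slide and -0.025 with the value table. The change of the effect with time was -0.0066 with quantile, -0.039 with normexp and -0.056 with the doubled floor. At 50 µM and 24 h the value table's names gave 0.034 and controls of the same series 0.15. Without 1 array, values ran from -0.42 to 0.13 at 50 µM and 24 h and from -0.055 to 0.22 for both doses.

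For mmu-miR-145a-5p at 10 µM and 24 h, keeping outlier spots gave 0.012, the slide 0.12 and the replicate block 0.014. At 10 µM and 48 h all probes gave -0.049 and the value table -0.36; both doses gave -0.0051 with all probes. At 50 µM and 48 h the total gene signal gave -0.14 and the doubled floor -0.0048. The value table's names gave 0.11 at 50 µM and 24 h. For 50 µM against 10 µM the names gave 0.38 and 0.46, and the table's own values 0.22 and 2.03, at 24 and 48 h; at 48 h all probes gave 0.087, quantile 0.15, normexp 0.044 and outlier spots 0.12. For DMSO over time all probes gave -0.0015, quantile -0.010, normexp -0.037, the total gene signal -0.85, the floor divided by 4 -0.22 and the value table -1.43. For cyclosporin A over time the total gene signal gave -0.33 and the value table -0.64. Without 1 array, values ran from -0.18 to 0.12 (10 µM, 24 h), -0.45 to 0.14 (50 against 10 µM, 48 h), -0.011 to 0.45 (50 µM, 48 h), -0.23 to 0.032 (both, 24 h) and -0.13 to 0.24 (DMSO over time). The floor held this marker on 8 of 22 arrays.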
